A study of Mus musculus with 6 samples.

Results

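The 10 genes described here serve the handling of lipid by capillary endothelium: Gpihbp1 and Lpl at the vessel lumen, Cd36, Fabp4, Fabp5 and Mgll in uptake and intracellular handling, Meox2, Tcf15 and Pparg as transcription factors, and Ly6c1 as a surface marker of capillary endothelial cells. They were found as the rows of the raw count table whose symbol in the deposited comparison table equals one of these names, and all 10 were found among 45792 genes. All 10 also passed the filter on low counts, which left 17125 genes; Ly6c1 reached the filter's level in 3 control-labelled hearts and in 1 mutant-labelled heart, and the other members in all 6 hearts. The members were chosen by their counts in these same hearts, after the comparison of mutant with control hearts had been seen, so the differences between the groups are given for them as a description. Where members past a threshold are counted, the share of all genes past it stands beside the count, and nothing is read from the count.

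The counts came from single whole hearts of mouse embryos at embryonic day 13.5. The labels put 3 hearts in a wild-type group and 3 in a group with the genotype Tie2Cre INO80 flox/flox, and give C57BL/6 as the strain of both. Tie2Cre expresses the recombinase from the Tek promoter in endothelial and endocardial cells and in blood cells, and the floxed allele lacks exon 6 of Ino80, the ATPase of a chromatin remodelling complex, after recombination. The study's methods describe mixed backgrounds, embryos of both sexes that were not typed for sex, and controls that include every genotype other than Tie2Cre;Ino80 fl/fl, so the control-labelled hearts may carry floxed alleles.

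Libraries held 28948836 to 89675692 counts, and mutant replicate 1 was the deepest. Ino80 was at 30.2, 31.6 and 32.7 CPM (counts-per-million on TMM-adjusted library sizes) in control-labelled replicates 1 to 3 and at 36.5, 33.7 and 31.8 CPM in mutant-labelled replicates 1 to 3. Counts over the whole gene therefore did not separate the genotypes in whole hearts, and each heart is called by its label. Such counts do not resolve the floxed exon or the cells in which the recombinase acts. By quantitative PCR on endothelial cells sorted from other hearts, the study could not detect Ino80 mRNA in the mutants. Of 14 pan-endothelial markers all were detected in every heart, and their summed level was 1234 to 1546 CPM in control-labelled and 1339 to 1386 CPM in mutant-labelled hearts.

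The adult heart burns fatty acids that reach it across capillary walls. Lipoprotein lipase, the product of Lpl, is made mainly by the muscle cells and is carried to the capillary lumen by GPIHBP1, where it releases fatty acids from triglyceride-rich lipoproteins. CD36 takes fatty acids up at the endothelial membrane, FABP4 and FABP5 bind them in the cytoplasm, and a heterodimer of MEOX2 and TCF15 is known to drive Cd36 and Lpl in the endothelium of the adult heart.

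Promoter sequences were held for 5 of the 10 members (Cd36, Mgll, Meox2, Pparg and Ly6c1) in the RefSeq table on GRCm38.p6. The 250 bases before the first listed start are shown for the 4 of them with the larger differences between the groups, since the members include factors that bind such regions. They are written 5′ to 3′ on the strand of the gene, from chr5:17835897-17836146 (minus strand, inside the annotated gene and at no transcript start of the GENCODE annotation used here) for Cd36, chr6:88724162-88724411 (plus strand) for Mgll, chr12:37108290-37108539 (plus strand) for Meox2 and chr15:75048838-75049087 (minus strand) for Ly6c1. Capitals mark matches, on either strand, to the E-box CANNTG bound by bHLH factors such as TCF15, the half-site AGGTCA of nuclear receptors such as PPARG, the homeodomain core TAATTA, and the TATA box TATAAA.
Cd36: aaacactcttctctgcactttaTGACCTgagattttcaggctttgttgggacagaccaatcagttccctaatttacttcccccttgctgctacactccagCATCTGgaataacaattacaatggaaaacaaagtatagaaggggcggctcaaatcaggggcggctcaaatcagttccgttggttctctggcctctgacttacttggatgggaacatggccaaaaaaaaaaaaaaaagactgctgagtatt
Mgll: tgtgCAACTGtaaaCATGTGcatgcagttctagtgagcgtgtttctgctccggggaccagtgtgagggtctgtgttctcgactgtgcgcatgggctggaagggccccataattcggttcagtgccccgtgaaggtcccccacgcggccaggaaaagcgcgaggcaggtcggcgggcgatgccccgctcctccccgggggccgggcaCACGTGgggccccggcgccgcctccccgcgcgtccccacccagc
Meox2: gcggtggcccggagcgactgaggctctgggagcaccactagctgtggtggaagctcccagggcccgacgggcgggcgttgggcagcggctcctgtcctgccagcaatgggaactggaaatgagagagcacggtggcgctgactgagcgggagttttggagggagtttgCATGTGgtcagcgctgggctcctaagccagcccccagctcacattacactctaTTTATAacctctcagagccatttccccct
Ly6c1: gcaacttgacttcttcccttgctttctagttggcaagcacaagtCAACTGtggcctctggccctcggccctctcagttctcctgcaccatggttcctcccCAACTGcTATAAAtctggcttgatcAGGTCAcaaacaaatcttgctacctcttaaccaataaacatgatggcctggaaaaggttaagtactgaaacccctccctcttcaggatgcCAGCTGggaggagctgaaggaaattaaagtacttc
The Cd36 window held 1 E-box and 1 half-site, the Mgll window 3 E-boxes, the Meox2 window 1 E-box and 1 TATA box, and the Ly6c1 window 3 E-boxes, 1 half-site and 1 TATA box. Over 32817 promoter windows of the same length, 66.2% held an E-box, 14% a half-site, 4.85% the homeodomain core and 12.4% the TATA box. The homeodomain core was in none of these 4 windows. These matches are letters in a window and were not linked to binding here. GC content was 43.2% for Cd36, 68% for Mgll, 62% for Meox2 and 48.4% for Ly6c1.

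Levels of different genes were compared as RPKM, CPM per kilobase of exon, over which the members spread widely. In control-labelled hearts Cd36 was at 81.4 ± 12.9 RPKM and Fabp5 at 79.5 ± 18.2 RPKM (SD, n = 3 each, as for all levels below), which do not differ beyond their spread. Lpl at 34.4 ± 1.66 RPKM and Fabp4 at 33.7 ± 10.9 RPKM were likewise within their spread of each other. Mgll followed at 11.3 ± 4.09 RPKM and Tcf15 at 8.18 ± 1.28 RPKM, again a pair that the spread does not part.

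The remaining members stood lower. Meox2 was at 5.24 ± 1.75 RPKM and Gpihbp1 at 4.16 ± 2.07 RPKM, while Ly6c1 at 0.911 ± 0.590 RPKM and Pparg at 0.794 ± 0.155 RPKM were the lowest. In mutant-labelled hearts Fabp5 led at 67.1 ± 5.76 RPKM, above Cd36 at 43.1 ± 6.29 RPKM. Fabp5 was also above Cd36 in control replicates 1 and 3, at 85.2 against 67.9 and 94.2 against 82.5 RPKM. The means of Tcf15 at 6.43 ± 1.21 RPKM and Mgll at 5.91 ± 0.335 RPKM had changed places, within their spread. Ly6c1 at 0.155 ± 0.0604 RPKM lay below Pparg at 0.512 ± 0.0583 RPKM, as it did in control replicates 1 and 3.

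**Figure D1:**
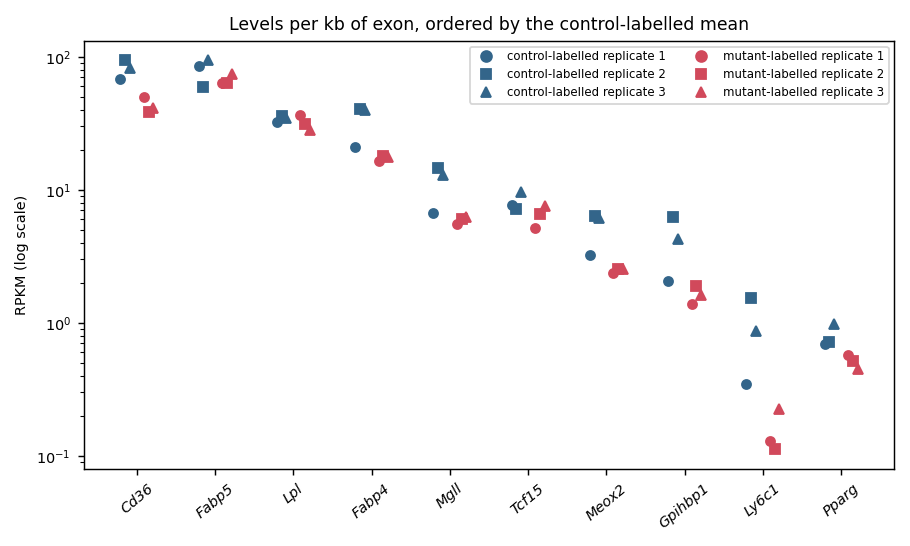
Level of each of the 10 genes in RPKM on a log scale, 1 point per heart, with control-labelled hearts in blue and mutant-labelled hearts in red and a marker shape for each replicate number. Cd36, Fabp5, Lpl and Fabp4 lead in both groups, and Ly6c1 and Pparg are lowest. Cd36 stands below Fabp5 in all mutant-labelled hearts and in control replicates 1 and 3.

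At the capillary lumen, the groups stood apart for the anchor of the lipase and overlapped for the lipase. Gpihbp1 (ENSMUSG00000022579.8, chromosome 15, 75596628 to 75599481, GRCm38), which encodes the endothelial protein that binds lipoprotein lipase and carries it across the cell, was at 5.23, 15.8 and 10.9 CPM in control-labelled replicates 1 to 3 and at 3.56, 4.80 and 4.10 CPM in mutant-labelled replicates 1 to 3. All mutant-labelled hearts lay below all control-labelled hearts, and control replicate 1 lay closest to them. This gave a log2 fold change of -1.36 (standard error 0.35 from the edgeR fit) and a mean at 39.1% of the control level. In whole hearts, fewer cells of a type and less RNA per cell cannot be told apart, nor can the cell types that made the RNA. This holds for every member.

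Lpl (ENSMUSG00000015568.13, chromosome 8, 68880491 to 68907448), which encodes the lipase itself, was at 341, 375 and 365 CPM in control-labelled and at 381, 327 and 294 CPM in mutant-labelled hearts. The groups overlapped, since mutant replicate 1 was the highest of all 6 hearts and the other two mutant-labelled hearts were the lowest. The log2 fold change of -0.11 had a 95% interval from -0.35 to 0.14. The ratio of Lpl to Gpihbp1 in RPKM was 15.9, 5.78 and 8.18 in control-labelled hearts and 26.1, 16.6 and 17.5 in mutant-labelled hearts. The groups did not overlap, but control replicate 1 at 15.9 lay close to mutant replicate 2 at 16.6. As Lpl differed little, this ratio mostly restates the lower Gpihbp1. Both genes were chosen with the comparison known, so the separation is only a description.

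Among the genes of fatty acid uptake and binding, Cd36 and Fabp4 stood apart between the groups and Fabp5 overlapped. Cd36 (ENSMUSG00000002944.13, chromosome 5, 17781690 to 17888801), the membrane transporter, was at 244, 337 and 296 CPM in control-labelled and at 180.2, 137 and 146 CPM in mutant-labelled hearts. No mutant-labelled heart reached a control-labelled heart, and 63.8 CPM lay between the lowest control-labelled and the highest mutant-labelled heart. Cd36 thus stood at 52.96% of its control level, a log2 fold change of -0.92 (standard error 0.14).

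Fabp4 (ENSMUSG00000062515.3, chromosome 3, 10204088 to 10208576), a fatty acid binding protein of capillary endothelium and fat cells, was at 94.8, 182 and 177 CPM in control-labelled and at 74.2, 80.6 and 79.3 CPM in mutant-labelled hearts. Control replicate 1 stood nearer to the mutant-labelled hearts than to the other controls, and the SD of the control-labelled hearts was 14.6 times that of the mutant-labelled hearts. Fabp4 had a log2 fold change of -0.96 (standard error 0.22).

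Fabp5 (ENSMUSG00000027533.10, chromosome 3, 10012548 to 10016607), its relative that is also made by many other cell types, was at 304, 211 and 336 CPM in control-labelled and at 227, 228 and 263 CPM in mutant-labelled hearts. All 3 mutant-labelled hearts lay inside the range of the control-labelled hearts. The log2 fold change was -0.24 with a 95% interval from -0.62 to 0.13. Although Fabp4 and Fabp5 lie 187.5 kb apart in one gene cluster, their hearts ordered differently, with control replicate 2 highest for Fabp4 and lowest for Fabp5. The ratio of Fabp4 to Fabp5 in RPKM was 0.248, 0.687 and 0.420 in control-labelled and 0.259, 0.281 and 0.239 in mutant-labelled hearts, with overlap through control replicate 1.

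Mgll (ENSMUSG00000033174.15, chromosome 6, 88724412 to 88828360) encodes monoacylglycerol lipase, which completes the breakdown of triglyceride to free fatty acid and glycerol. It was at 34.1, 73.5 and 65.2 CPM in control-labelled and at 28.1, 30.5 and 31.4 CPM in mutant-labelled hearts. The groups did not overlap, but control replicate 1 exceeded the highest mutant-labelled heart by only 2.66 CPM. Mgll had a log2 fold change of -0.94 (standard error 0.25).

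**Figure D2:**
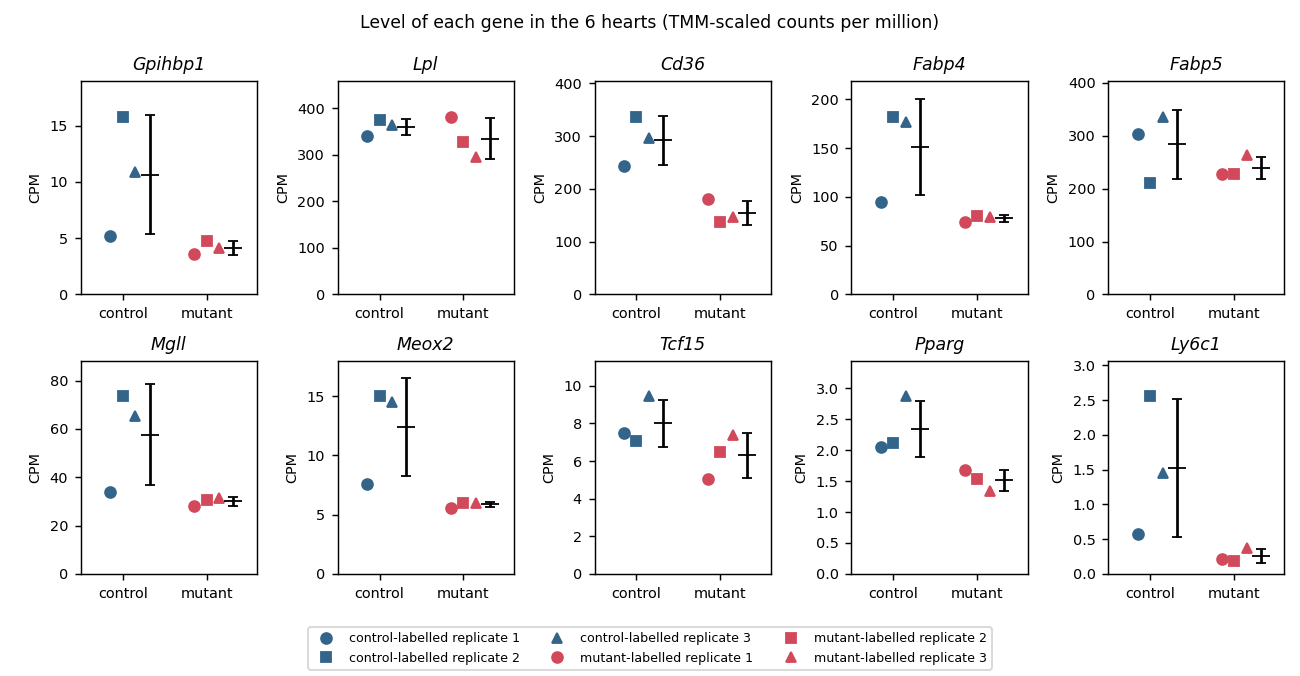
Level of each of the 10 genes in each heart in CPM, 1 panel per gene with its axis from 0; points are single hearts, control-labelled in blue and mutant-labelled in red, and the black bars give the mean and SD of each group of 3. In 7 panels every mutant-labelled heart lies below every control-labelled heart, and in Lpl, Fabp5 and Tcf15 the groups overlap. Over all tested genes the groups did not overlap for 12.8% with the mutant-labelled hearts lower and for 14.3% with them higher.

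The transcription factors were expressed at low levels, and both partners of the MEOX2 and TCF15 heterodimer were detected in all hearts. Meox2 (ENSMUSG00000036144.6, chromosome 12, 37108540 to 37179534), a homeodomain factor, was at 7.59, 14.98 and 14.5 CPM in control-labelled and at 5.59, 5.99 and 5.98 CPM in mutant-labelled hearts. The 3 mutant-labelled hearts were within 1.07-fold of each other, and all lay below control replicate 1, the lowest control. Meox2 stood at 47.4% of its control level, a log2 fold change of -1.08 (standard error 0.24).

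Tcf15 (ENSMUSG00000068079.5, chromosome 2, 152143561 to 152149097), the bHLH partner, was at 7.51, 7.08 and 9.45 CPM in control-labelled and at 5.04, 6.49 and 7.38 CPM in mutant-labelled hearts. The groups overlapped through mutant replicate 3. Its log2 fold change was -0.36 with a 95% interval from -0.77 to 0.06. The ratio of Meox2 to Tcf15 in RPKM was 0.420, 0.878 and 0.638 in control-labelled and 0.461, 0.384 and 0.336 in mutant-labelled hearts, with overlap.

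Pparg (ENSMUSG00000000440.10, chromosome 6, 115360951 to 115490399), a nuclear receptor that is activated by fatty acids and drives Cd36 and Fabp4 in fat cells, was at 2.05, 2.11 and 2.87 CPM in control-labelled and at 1.68, 1.53 and 1.33 CPM in mutant-labelled hearts. The groups did not overlap, and the distance between their nearest hearts was 0.373 CPM. The log2 fold change was -0.62 (standard error 0.23). Between 39 and 155 reads lay behind each of these values.

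Ly6c1 (ENSMUSG00000079018.8, chromosome 15, 75044018 to 75048830), a small membrane-anchored protein on capillary endothelium and some leukocytes, was at 0.578, 2.55 and 1.45 CPM in control-labelled and at 0.216, 0.188 and 0.376 CPM in mutant-labelled hearts. It rested on 22, 75 and 47 counts in control-labelled and on 20, 8 and 11 counts in mutant-labelled hearts. The log2 fold change of -2.59 had the widest standard error of the members, 0.57, and a 95% interval from -3.90 to -1.29. Ly6c2, a near-identical copy at 0.131, 0.511 and 0.247 CPM in control-labelled and 0.0865, 0.0470 and 0 CPM in mutant-labelled hearts, can share its reads, so the division of counts between them is uncertain. Ly6c1 lies 547.8 kb from Gpihbp1 in the same Ly6 gene cluster.

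Over the 10 members, all log2 fold changes were below 0, where 50.3% of all tested genes were, and their median was -0.93 against -0.002 for all tested genes. For 7 members no mutant-labelled heart overlapped a control-labelled heart, with the mutant-labelled hearts lower, and for 0 with them higher; over all tested genes these shares were 12.8% and 14.3%. With edgeR (quasi-likelihood, Benjamini-Hochberg over all tested genes, threshold 0.05), 0 members and 0% of all tested genes were called in either direction. The smallest adjusted p of any gene in that fit was 0.0533, just above the threshold. DESeq2 called 6 members lower and 0 higher, where it called 3.26% of its tested genes lower and 2.52% higher. Ly6c1 is in both the 7 and the 6, although it reached the filter's level mainly in the control-labelled hearts.

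For the members the spread lay mostly in the control-labelled hearts, and the share of all genes with this pattern was not measured. Control replicate 1 was the lowest control, and the one nearest to the mutant-labelled mean, for 8 of 10 members; for Fabp5 and Tcf15 this was control replicate 2. The mean of the other two controls was 1.90 times the level in control replicate 1 for Fabp4, 2.04 times for Mgll, 1.94 times for Meox2, 2.55 times for Gpihbp1 and 3.46 times for Ly6c1, but 1.08 times for Lpl. The highest control exceeded the lowest by a larger factor than in the mutant-labelled hearts for 8 of 10 members, Lpl and Tcf15 being the exceptions. A wider control spread was not particular to the members. Every listed pan-endothelial marker had a larger SD in control-labelled hearts, from 1.58 times for Ptprb to 8.51 times for Cdh5. Some other listed genes went the other way, such as Slc27a1 at 0.703 times.

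Single hearts moved the values accordingly. Without control replicate 1 the log2 fold changes were -1.20 for Fabp4, -1.21 for Mgll, -1.33 for Meox2 and -1.69 for Gpihbp1. Without control replicate 2 they were -0.80, -0.73, -0.91 and -0.95. The members that edgeR called lower numbered 6 without control replicate 1, where it called 2.49% of all genes lower, and 0 without control replicate 2. Without a filter beyond 1 count they numbered 6, with 1.21% of all genes called lower. DESeq2 with 1 heart left out at a time called 4 to 6 members lower. These fits called 5.79%, 1.88% and 2.12% of all genes lower without control replicates 1, 2 and 3, and 1.55%, 1.5% and 3.27% without mutant replicates 1, 2 and 3.

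**Figure D3:**
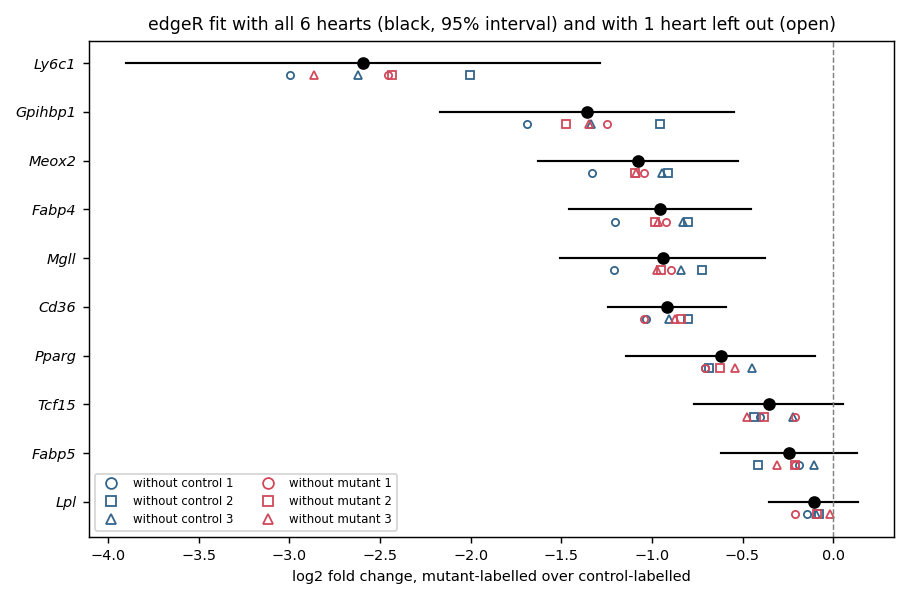
Log2 fold change of each of the 10 genes, mutant-labelled over control-labelled, from edgeR; black points and lines are the estimate and 95% interval with all 6 hearts, and open symbols are fits without 1 heart. Lpl, Fabp5 and Tcf15 lie nearest to 0, all open symbols lie below 0, and for Gpihbp1, Meox2, Fabp4 and Mgll the fit without control replicate 1 is the most negative.

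The same differences were measured against the RNA of pan-endothelial markers rather than all RNA. With libraries scaled to the summed counts of the 14 pan-endothelial markers in place of TMM, the log2 fold changes were -0.91 for Cd36, -0.94 for Fabp4, -0.93 for Mgll, -1.06 for Meox2, -1.36 for Gpihbp1, -0.10 for Lpl and -0.20 for Fabp5. The mean log2(CPM + 1) of the members minus that of the pan-endothelial markers was -1.40, -0.81 and -1.07 in control-labelled and -1.75, -1.72 and -1.66 in mutant-labelled hearts, without overlap. As the members were chosen with this comparison known, that separation is only a description. The markers are not limited to capillaries: the study uses endomucin, the product of the listed Emcn, to label endocardium. Pan-endothelial markers had a median log2 fold change of -0.04, with 5 of 14 higher and 9 lower. Of these, 0 were called by edgeR in either direction and 2 were called lower by DESeq2, which called 3.26% of its tested genes lower. Those were Cd34 and Esam, adhesion molecules of the vessel wall, with log2 fold changes of -0.38 and -0.33 without overlap and adjusted p-values of 0.127 and 0.113 from edgeR and 0.0283 and 0.0282 from DESeq2. Tie1 was at 0.24, with the mutant-labelled hearts higher without overlap (edgeR, adjusted p = 0.352).

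Other genes of fatty acid uptake and triglyceride turnover did not share one direction. Of 30 listed, 28 were tested and 0 were called by edgeR at an adjusted p under 0.05, with a median log2 fold change of -0.10. At an unadjusted p under 0.05, 5 were lower and 2 higher, where 9.98% of all tested genes were lower and 9.48% higher. DESeq2 called 5 lower and 0 higher, where it called 3.26% of its tested genes lower and 2.52% higher. Cav1 and Cav2, which form the caveolae of endothelial membranes, were at 320 ± 96.1 and 42.6 ± 3.34 CPM in control-labelled and 192 ± 8.14 and 24.8 ± 1.46 CPM in mutant-labelled hearts. Their log2 fold changes were -0.74 and -0.78 (edgeR, adjusted p = 0.125 and 0.0645). Cavin1, which coats the same structures, had a log2 fold change of -0.15 with overlap.

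Of the enzymes that act on fatty acids inside the cell, Acsl1 and Dgat2 had no overlap between the groups and their listed relatives overlapped. Acsl1, which activates long-chain fatty acids to acyl-CoA, was at 89.6, 196 and 131 CPM in control-labelled and 63.6, 55.1 and 55.9 CPM in mutant-labelled hearts, a log2 fold change of -1.25 (adjusted p = 0.0833 from edgeR). Dgat2, which makes triglyceride, was at 14.7, 23.2 and 21.9 CPM in control-labelled and 9.52, 10.6 and 8.89 CPM in mutant-labelled hearts, a log2 fold change of -1.04 (adjusted p = 0.0763 from edgeR). Fabp3, the binding protein of heart muscle, was the remaining gene of the list that DESeq2 called lower and was named after its values were seen; it differed by -0.66 on the log2 scale (edgeR, adjusted p = 0.100). In Acsl1, Dgat2, Fabp3, Cav1 and Cav2 the groups of hearts did not overlap, and the mutant-labelled hearts were the lower ones. The relatives Acsl3, Acsl4, Acsl5 and Dgat1 were at -0.10, -0.11, 0.04 and 0.07 with overlap, as was the lipid droplet gene Plin2 at 0.06, and Abhd5, which activates triglyceride lipase, was at -0.18 without overlap.

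Both directions were seen among the SLC27 fatty acid transport proteins, 4 of which are given here after their values were seen. Slc27a3 and Slc27a6 had log2 fold changes of 0.47 and 0.54 with the mutant-labelled hearts higher and no overlap, and Slc27a1 and Slc27a4 had 0.19 and -0.15 with overlap (edgeR, adjusted p = 0.1496, 0.323, 0.343 and 0.481 in this order). The triglyceride lipases Pnpla2 and Lipe were at -0.21 and -0.05, and Angptl4, an inhibitor of lipoprotein lipase, was at -0.35, all with overlap between the groups. Lmf1 and Sel1l, which are needed to fold the lipase, were at 0.03 and 0.02.

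Among 16 nuclear receptors, coactivators and partner factors of PPARG, MEOX2 and TCF15, edgeR called 0. At an unadjusted p under 0.05, 3 were lower and 1 higher, where 9.98% of all tested genes were lower and 9.48% higher. DESeq2 called Ppara alone, as lower, where it called 3.26% of its tested genes lower. Ppara, the fatty acid receptor of heart muscle, was at 8.28, 21.6 and 14.7 CPM in control-labelled and 6.73, 5.71 and 6.495 CPM in mutant-labelled hearts, a log2 fold change of -1.23 (adjusted p = 0.109 from edgeR). Meox1, the relative of Meox2, was at 18.6, 13.96 and 14.5 CPM in control-labelled and 16.8, 15.2 and 13.3 CPM in mutant-labelled hearts, with full overlap and a log2 fold change of -0.05. The E proteins that pair with TCF15 went both ways, with log2 fold changes of 0.27 for Tcf3, -0.24 for Tcf4 and 0.03 for Tcf12 (adjusted p = 0.190, 0.186 and 0.850 from edgeR). Rxra and Rxrb, the partners of PPARG, were at -0.02 and 0.07.

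Of 16 other genes known from capillary or coronary endothelium, 14 were tested and 0 were called by edgeR. At an unadjusted p under 0.05, 6 were lower and 0 higher, where 9.98% of all tested genes were lower and 9.48% higher. DESeq2 called 4 lower, where it called 3.26% of its tested genes lower. These were Cd300lg, Sgk1, Slc28a2 and Aqp7, of which Slc28a2 and Aqp7 had group means below 1 CPM. Aqp7, not tested by edgeR, was at 0.0788, 1.43 and 0.0926 CPM in control-labelled and at 0.0216, 0.0705 and 0 CPM in mutant-labelled hearts, so that control replicate 2 alone stood high. The median log2 fold change was -0.34, with 12 below and 2 above 0. Cd300lg, a receptor of capillary and lymph node endothelium, was at 10.7, 8.51 and 15.9 CPM in control-labelled and 3.84, 5.27 and 5.61 CPM in mutant-labelled hearts, a log2 fold change of -1.27 (adjusted p = 0.0833 from edgeR). Sgk1, a kinase induced by many stimuli, followed at -0.55 without overlap, whereas Aplnr, the apelin receptor of sprouting coronary vessels, was at -0.04 and Plvap, which forms the diaphragms of fenestrated capillaries, at 0.45, both with overlap.

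**Figure D4:**
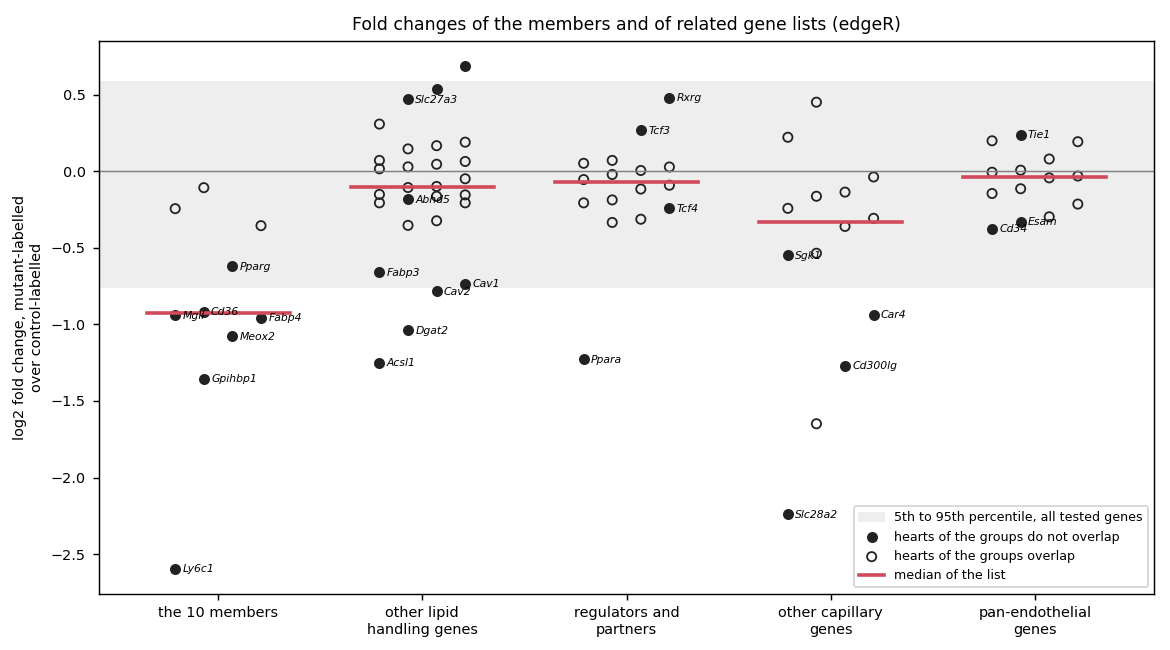
Log2 fold change, mutant-labelled over control-labelled, of each tested gene of the members and of 4 related lists; filled points are genes whose groups of hearts do not overlap, open points overlap, red bars are list medians and the grey band spans the 5th to 95th percentile of all tested genes. The members' median is -0.93 and those of the other lists are -0.10, -0.07, -0.34 and -0.04; Acsl1, Dgat2, Ppara and Cd300lg lie among the lowest genes of their lists.

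Several members are also made by cells other than capillary endothelium, so marker lists of those cells were measured beside them; their part in the differences was not tested. Of 8 adipocyte markers, which would accompany Fabp4, Pparg and Cd36 from fat cells, Plin1, Cidec, Cfd and Retn were at 0 in all 6 hearts and Adipoq was at or below 0.0525 CPM. Cidea, which muscle can also express, was the one at 1 CPM or more, at 3.83 ± 0.704 CPM in control-labelled and 2.10 ± 0.373 CPM in mutant-labelled hearts. It was lower without overlap, as Fabp4 and Cd36 were, with a log2 fold change of -0.87 and an adjusted p of 0.118 from edgeR and 0.0168 from DESeq2. The lung marker Nkx2-1 was at 0 in all hearts and the 6 lung and liver markers summed to at most 1.6 CPM in any heart. The 6 somite and muscle precursor markers, which would accompany Tcf15 from body wall tissue, summed to at most 1.01 CPM.

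Blood, mural and lymphatic markers were present. The 11 macrophage markers summed to 66.9 to 92.8 CPM in control-labelled and 84.7 to 86.9 CPM in mutant-labelled hearts, with 6 of 11 higher and 5 lower; Cx3cr1 was higher without overlap at 0.35 and C1qb and Fcgr1 lower at -0.33 and -0.63 on the log2 scale. The 6 platelet markers summed to 12.9 to 17.3 and 10.3 to 20.1 CPM, with 2 higher and 4 lower. The 7 erythroid markers, all of them lower, summed to 4119 to 18286 CPM in control-labelled and 2749 to 5012 CPM in mutant-labelled hearts, with overlap through control replicate 1. The 6 pericyte markers, of which 5 were tested and all 5 were lower, summed to 295 to 446 and 253 to 269.6 CPM without overlap, with no overlap also for Kcnj8 (log2 fold change -0.74), and led by Rgs5 at 81.7 ± 32.4 and 13.3 ± 2.55 CPM (log2 fold change -2.63, adjusted p = 0.0645 from edgeR). DESeq2 called 3 of the 6 pericyte markers lower, Rgs5, Kcnj8 and Higd1b, with adjusted p-values of 3.34e-08, 0.00766 and 0.0140, where it called 3.26% of its tested genes lower. The 5 lymphatic markers summed to 177 to 182 CPM in control-labelled and 159 to 179 CPM in mutant-labelled hearts, with 2 higher and 3 lower. The largest part of each sum was Prox1, at 109 ± 4.35 and 114 ± 6.76 CPM, and the study uses PROX1 antibodies to mark cardiomyocytes. Lyve1 was lower without overlap, at a log2 fold change of -0.45. Ccl21a was at 4.78, 12.97 and 8.74 CPM in control-labelled and 0.324, 1.93 and 0.752 CPM in mutant-labelled hearts, without overlap. Its log2 fold change was -3.19, with an adjusted p of 0.0833 from edgeR and 0.00354 from DESeq2.

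Cardiomyocytes are known as the main source of the lipase in the adult heart, but the source of Lpl RNA was not measured here. Cardiomyocyte markers went both ways. The 10 markers summed to 16701 to 21676 CPM in control-labelled and 17241 to 18169 CPM in mutant-labelled hearts, with 3 higher and 7 lower and a median log2 fold change of -0.15. Myl7 and Myh6, which lead in the atria, were at 0.69 and 0.48 without overlap. DESeq2 called these 2 higher and 0 lower, where it called 2.52% of its tested genes higher and 3.26% lower. Tnni3, Ryr2, Ttn and Tnnt2 were at -0.47, -0.45, -0.34 and -0.22 with overlap. The 6 endocardial markers summed to 187 to 351 and 314 to 371 CPM, with 4 higher and 2 lower and Hapln1 higher without overlap at 1.25. The 5 epicardial markers summed to 152 to 156 and 165 to 192 CPM without overlap, with 4 higher and 1 lower and Upk3b higher without overlap at 0.57 (edgeR, adjusted p = 0.0833).

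Most family relatives of the members were hardly detected. Of 25 relatives and cluster neighbours, 17 were below 1 CPM and 10 were tested, and Fabp9, Pmp2 and Ly6g were at 0 in every heart. Fabp7 was at 2.55, 6.60 and 3.30 CPM in control-labelled and 1.90, 1.81 and 2.26 CPM in mutant-labelled hearts, a log2 fold change of -1.06 (adjusted p = 0.170 from edgeR). Ly6e, a relative in the Ly6 cluster, was at 30.6 ± 1.46 and 27.8 ± 0.774 CPM, a log2 fold change of -0.14, and Ly6a, a stem cell and endothelial antigen, was at 0.342, 1.29 and 0.710 CPM in control-labelled and 0.205, 0.188 and 0.376 CPM in mutant-labelled hearts. Lynx1, another Ly6 relative named after its values were seen, was at 10.96, 35.8 and 32.4 CPM in control-labelled and 12.1, 6.44 and 11.3 CPM in mutant-labelled hearts, where control replicate 1 again lay with the mutant-labelled hearts.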

How the data were processed

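RNA of 6 single embryonic hearts was sequenced, 3 per group. The authors aligned the 76 bp read pairs with STAR (v2.4.2a) to GRCm38 and GENCODE vM6, and deposited unnormalized counts per gene from summarizeOverlaps; the setting for reads on several genes and the use of strand are not given in the sources used here. Their second table holds DESeq2 means, fold changes and p-values, of which none was used; it supplied symbols only. Samples were matched by title, and replicate numbers are not stated to pair hearts.

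Tests used edgeR 4.0.16 under R 4.3.3 (filterByExpr with minimum count 10 and total 15, TMM, quasi-likelihood test of condition, Benjamini-Hochberg over 17125 genes, threshold 0.05). Standard errors are the log2 fold change over the root of F. RPKM used the exon union of GENCODE vM21 on GRCm38. Alternatives were RLE factors, DESeq2 1.42.0, 2 other filters, leaving out each heart, a replicate block and pan-endothelial scaling. The steps were tested on simulated data.

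The members, lists and tests were chosen with earlier results of these data known. All members, Ino80, and from each list the genes past the threshold, or else up to 4 whose groups did not overlap at a mean of 1 CPM or more, by size of change, were to be named; other names were chosen after their values were seen, and 1 gene close to Cd36 is not reported here. Per the study's methods, controls were littermates and mutants came from several litters, but the litter of each heart is not given in the sources used here. The p-values set the difference between the groups against the spread among these hearts within groups. That spread may include differences between litters. The number of hearts and a biological coefficient of variation of 0.153, more than depth, limited precision, except for Ly6c1 and Pparg.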

Additional observations from a re-analysis of the deposited data

How the results depend on the processing

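The 10 members kept a negative log2 fold change in each of 179 alternative values. With edgeR and 1 heart left out, their median ran from -1.12 without control replicate 1 to -0.76 without control replicate 2; with DESeq2, added after seeing the data, from -1.12 to -0.77. Calls moved far more. Over all genes, edgeR's counts of 0 higher and 0 lower became 436 and 564 with DESeq2, 262 and 341 without a filter beyond 1 count, 33 and 47 with pan-endothelial scaling (for all genes and the lists added after seeing the data), and 0 to 320 and 0 to 431 with edgeR without 1 heart, the highest without control replicate 1. DESeq2 without 1 heart, added after seeing the data, called 784, 258 and 271 genes higher and 987, 322 and 327 lower without control replicates 1, 2 and 3, and 154, 175 and 297 higher and 245, 255 and 559 lower without mutant replicates 1, 2 and 3. Members called lower were 6 with DESeq2 and 6 without a filter beyond 1 count, where 3.26% and 1.21% of tested genes were called lower. With edgeR without 1 heart they were 0 to 6, the 6 without control replicate 1, where 2.49% of tested genes were called lower. With DESeq2 without 1 heart they were 4 to 6, where 1.5% to 5.79% of tested genes were called lower. RLE factors and a filter of 1 CPM in 3 hearts left 0 calls.

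For other lipid genes, calls lower were 5 with DESeq2, 5 without a filter beyond 1 count, 2 with pan-endothelial scaling, 0 to 5 with edgeR without 1 heart and 4 to 6 with DESeq2 without 1 heart; at an unadjusted p under 0.05, 5 to 10 were lower and 1 to 4 higher with edgeR without 1 heart. For the regulators, calls lower were 1 with DESeq2, 1 without a filter beyond 1 count, 0 to 2 with edgeR without 1 heart and 1 to 3 with DESeq2 without 1 heart; at an unadjusted p under 0.05, 1 was lower with pan-endothelial scaling, and 1 to 4 lower and 0 to 1 higher with edgeR without 1 heart. For other capillary genes, calls lower were 4 with DESeq2, 2 without a filter beyond 1 count, 1 with pan-endothelial scaling, 0 to 4 with edgeR without 1 heart and 1 to 8 with DESeq2 without 1 heart; at an unadjusted p under 0.05, 1 was higher with DESeq2, 1 without a filter beyond 1 count and 1 with pan-endothelial scaling, and 3 to 7 were lower and 0 to 2 higher with edgeR without 1 heart. With DESeq2 without 1 heart, 0 to 1 lipid genes and 0 to 2 other capillary genes were called higher; at an unadjusted p under 0.05, 5 to 10, 1 to 4 and 3 to 8 genes of the lists, in the order above, were lower and 1 to 4, 0 to 1 and 0 to 2 higher. The most calls lower came without control replicate 1, and the cause was not tested.

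With the replicate number as a block, edgeR called 1 gene higher and 13 lower, and 0 members. Deviations of same-numbered hearts correlated at 0.024, -0.084 and -0.073, and those of differently numbered hearts at -0.076 to 0.136. Equal numbers were thus not closer than unequal ones by this measure. Whether they share a litter or batch was not tested. Depth limits Ly6c1, at 8 to 75 counts per heart.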

Other observations

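Some genes outside the lists followed single members closely over the 6 hearts. Likeness was the root mean square difference of log2(CPM + 1), centred on each gene's mean, over 11771 tested genes with a mean of at least 5 CPM. Closest to Cd36 was Klf15, a metabolic transcription factor of heart muscle, at a difference of 0.13, with 12.1, 20.8 and 16.2 CPM in control-labelled and 8.19, 6.98 and 8.58 CPM in mutant-labelled hearts. Rasl12, Pitpnc1 and Strip2 were also among the closest, at 0.15 to 0.16. The log2 fold changes of these 4 genes ran from -1.11 for Rasl12 to -0.71 for Pitpnc1. The search used the same hearts and values as the comparison, so a shared direction follows from the search.

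Closest to Lpl were Tirap, Taok1, Ifit2, Ash1l and Ap4e1, at differences of 0.02 to 0.04. Tirap, an adaptor of Toll-like receptors, was at 14.4, 15.2 and 15.6 CPM in control-labelled and 16.2, 13.6 and 12.2 CPM in mutant-labelled hearts, with mutant replicate 1 highest and mutant replicate 3 lowest as for Lpl. Their log2 fold changes ran from -0.13 to -0.08, and genes that vary little are close to one another by this measure.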
